A study of Arabidopsis thaliana with 6 samples.

Results

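The comparison set xylem pole pericycle cells after 2 h on NAA, a synthetic auxin, against the same cells before NAA (0 h). It used 4 of the 6 arrays of the series, chosen by their labels: 2 at 2 h and 2 at 0 h. All cells came from Arabidopsis thaliana seedlings of line J0121. In this enhancer trap line GAL4 drives green fluorescent protein in the pericycle at the xylem poles. The cells were isolated by fluorescence-activated sorting. Both groups had been raised on NPA, an inhibitor of polar auxin transport that keeps these cells from starting lateral roots. The 2 h group was then moved to NAA at 72 hours after germination (HAG) and was 74 HAG old when sampled, and the 0 h group was sampled at 72 HAG. Time on NAA and age therefore went together, and seedlings kept without NAA to 74 HAG were not analysed here. The 2 arrays at 6 h NAA entered the fit only to estimate the spread, unless a value is named as theirs.

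Auxin enters the nucleus and brings together a TIR1/AFB F-box receptor and an Aux/IAA repressor, which is then degraded, so that ARF transcription factors can act on their target genes. Aux/IAA, GH3 and LBD genes are among the known early targets. In the root, auxin makes xylem pole pericycle cells re-enter the cell cycle and build a lateral root primordium, a process that needs loosening of the cell wall as well as new divisions. The GH3, LBD and ribosomal protein genes are the best known part of this response. The genes described here are those of other transcription factors, of hormones, of the wall, of transport and of signalling.

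Array medians were 75.7 and 81.6 signal units at 2 h (replicates 1 and 2), against 109.8 and 83.35 in the 0 h group. Across probe sets the correlation between replicates was 0.938 for the 2 h arrays and 0.870 for the 0 h arrays. Hybridisation controls, foreign transcripts added before hybridisation, had a geometric mean signal of 1780 and 6001 at 2 h, against 13624 and 2609 at 0 h, so 1 array of each group was the brighter one. As a measure of RNA integrity, the 3' over 5' signal ratio of actin was 2.98 and 1.37 in the 2 h arrays, against 2.22 and 1.40 in the 0 h arrays, and that of GAPDH was 4.73 and 3.93 in the 2 h arrays, against 5.78 and 2.68 in the 0 h arrays. Of the markers of stele and pericycle 0 of 5 were named on the array table, so the labelled cell type could not be set against them. Of the markers of xylem (4 genes), root cap (2) and green tissue (2) 0 were named either. Among markers of other root cells, only 1 of 6 for the endodermis was named. This gene, GSO1, read 553.4 and 1212.5 at 2 h, against 601.1 and 828.6 at 0 h. The cortex marker AT1G09750, the root hair marker EXPA18 and the phloem marker AT3G12730 were at most 164.6 on any of these 4 arrays, and none of the 4 markers tested was called. The markers CO2 of the cortex and EXPA7 of root hairs lay below the filter. The part of other cell types in the results was not tested, and fewer cells of a type and less RNA per cell cannot be told apart.

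In the whole fit 991 probe sets were higher at 2 h (7.26% of 13647 tested) and 562 were lower (4.12%), at a Benjamini-Hochberg adjusted p under 0.05 in limma. Among the 7387 tested loci with a name these shares were 7.23% and 3.56%, and among the 1048 of them with a gene symbol 5.15% and 4.87%. Of all calls 63.8% were thus higher, and 82.4% were with each array centred on its median. The 5 functional classes, formed by gene symbol after the values had been seen and with every named member kept, held 490 genes, of which 199 lay below the filter on mean signal and 291 were tested. Of those 291, 19 were higher at 2 h (6.53%) and 22 were lower (7.56%), and their median change was -0.30 on the log2 scale against -0.15 for all probe sets tested. The share of higher genes lay between the background shares. The share of lower genes was above both, a difference that was not tested. All changes are 2 h minus 0 h on log2(signal + 5), with the SE of the limma fit and n = 2 arrays in each group, and all adjusted p-values come from that fit over all 13647 probe sets. In each of the 41 called genes the arrays of the groups did not overlap. The change therefore had to have the same direction between the brighter arrays and between the dimmer arrays. Genes that were not called could also show no overlap, and the share without overlap over all probe sets was not counted. The 19 higher genes all had a present call on replicate 1 at 2 h, and 19 of the 22 lower genes did. The scaling matters more for the falls. With each array centred on its median all 19 higher genes were still called, but only 7 of the 22 lower ones, and none changed direction. Leaving out an array also ended calls: 12 of the 19 higher and 6 of the 22 lower genes were still called without replicate 1 at 2 h, 8 and 4 without replicate 2 at 2 h, 17 and 5 without replicate 1 at 0 h, and 16 and 10 without replicate 2 at 0 h.

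**Figure D1:**
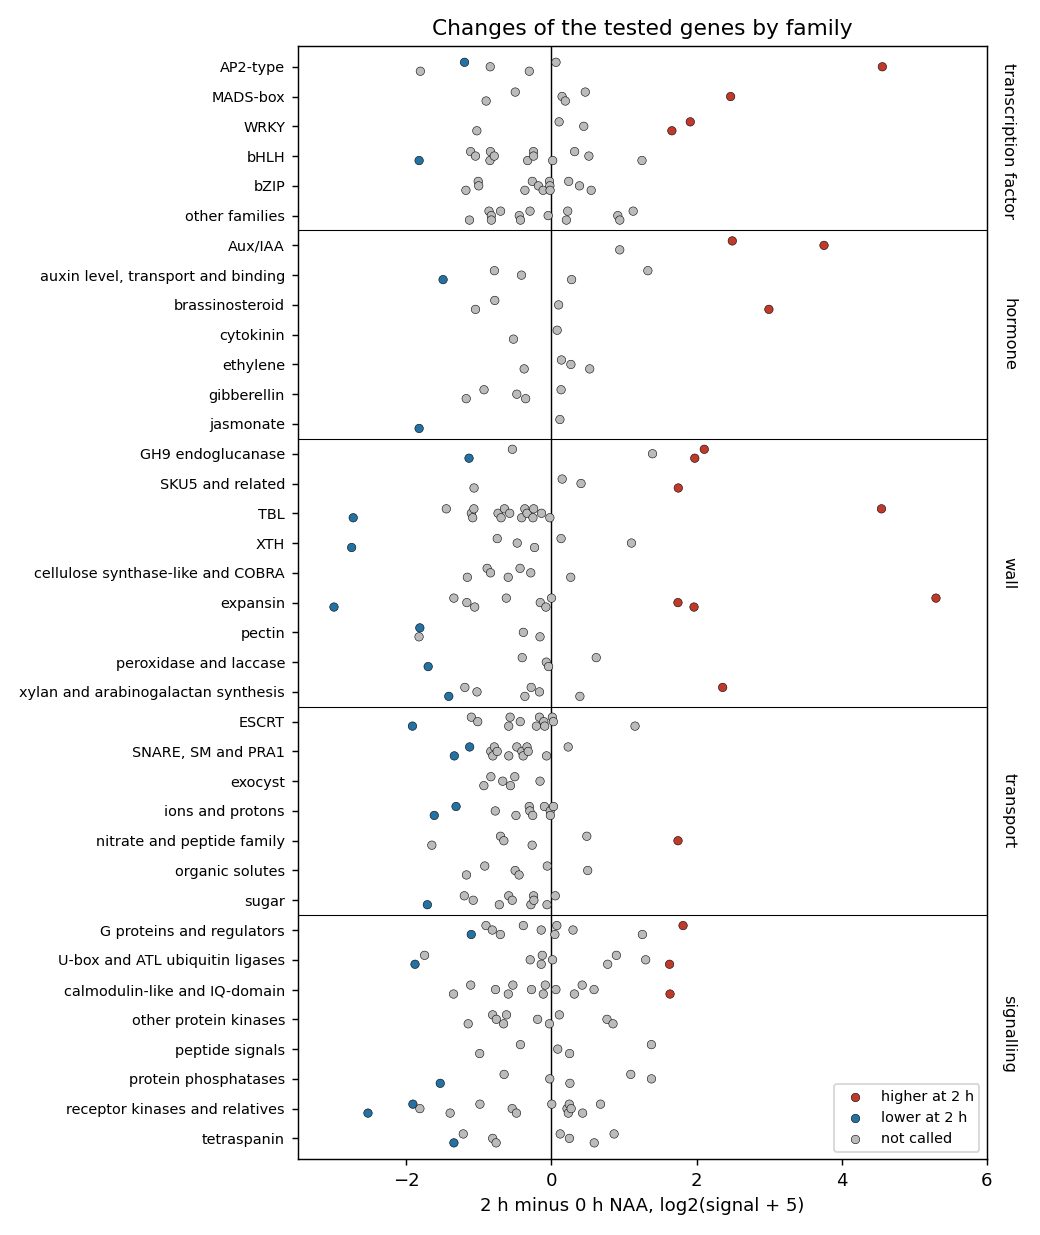
Change of every tested gene of the 5 classes, by family; the x axis gives 2 h minus 0 h NAA on log2(signal + 5), each point is 1 gene (MYC3 and BIM1 are in both the bHLH and a hormone family), red points were higher at 2 h, blue points lower and grey points not called. Calls to either side are spread thinly over the families, and the points beyond 4 to the right are PUCHI, TBL36 and EXPA4.

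Of 57 tested transcription factor genes 4 rose, PUCHI, AGL18, WRKY53 and WRKY6, and 2 fell, MYC3 and LEP. These shares, 7.02% and 3.51%, were close to those of all named loci (7.23% and 3.56%). Among loci with a gene symbol the shares were 5.15% and 4.87%, and the differences were not tested. The class median was -0.25. PUCHI encodes an AP2-type factor that orders cell divisions in the lateral root primordium. Its signal was 1523.7 and 1265.5 on the 2 h arrays, against 85.4 and 33.5 on the 0 h arrays. It was low on both arrays before NAA and at least 1265.5 on both after 2 h, and its signals were 6237.1 and 3719.9 at 6 h. The rise was 4.56 ± 0.43 (adjusted p = 0.000215, limma) and the call held under every alternative run. AGL18, a MADS-box factor known for delaying flowering, had signals of 667.8 and 769.1 at 2 h, against 67.6 and 228.7 at 0 h. The 0 h arrays differed more from each other than the 2 h arrays did, and the rise was 2.47 ± 0.49 (adjusted p = 0.00804). Of the MADS-box genes 36 of 42 lay below the filter, and the other 5 tested had changes from -0.90 to 0.47 with no call.

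WRKY53 and WRKY6 encode WRKY factors best known from leaf senescence and defence. WRKY53 read 781.0 and 1095.8 at 2 h, against 288.6 and 202.6 at 0 h. WRKY6 read 1618.5 and 1515.6 at 2 h, against 360.2 and 672.0 at 0 h. Both 2 h arrays lay above both 0 h arrays for each gene, with rises of 1.91 ± 0.41 and 1.66 ± 0.35 (adjusted p = 0.0120 and 0.0121). At 6 h the signals were 139.4 and 292.0 for WRKY53 and 545.1 and 461.7 for WRKY6, close to the 0 h arrays. The other 3 tested WRKY genes were not called: WRKY22 changed by 0.44 ± 0.32, WRKY20 by 0.11 ± 0.40 and ZAP1 (WRKY1) by -1.03 ± 0.40. STZ, a zinc finger repressor of stress responses, was bright on all arrays, with 5442.0 and 10069.5 at 2 h against 3748.3 and 4112.5 at 0 h, a change of 0.91 ± 0.40 that did not pass (adjusted p = 0.170).

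On the falling side, MYC3, a bHLH activator of jasmonate responses, had signals of 98.1 and 56.1 at 2 h, against 389.4 and 195.6 at 0 h (-1.83 ± 0.52, adjusted p = 0.0453). LEP, an AP2-type factor named for its leaf petiole phenotype, read 295.5 and 425.7 at 2 h and 841.8 and 800.8 at 0 h (-1.20 ± 0.32, adjusted p = 0.0352). The 2 AP2-type genes that were called thus moved in opposite directions. SMZ, an AP2-type repressor of flowering, had a change of -1.81 ± 0.60 at a low signal and was not called (adjusted p = 0.0800). Of 13 tested bZIP genes 0 were called, with changes from -1.18 to 0.55, and of 13 bHLH genes MYC3 alone was called. UPB1, a bHLH regulator of peroxidase genes in the root tip, read 414.7 and 249.3 at 2 h and 91.7 and 190.7 at 0 h, a change of 1.248 ± 0.458 that was not called (adjusted p = 0.107). LAS, a GRAS factor of axillary meristems, changed by 1.13 ± 0.45 (adjusted p = 0.139). Over the alternatives run the adjusted p of AGL18 went up to 0.0738, that of WRKY53 to 0.126 and that of MYC3 to 0.285 without replicate 2 at 2 h, and that of WRKY6 to 0.0822 and that of LEP to 0.250 without replicate 1 at 2 h, and their lowest values were 0.00126, 0.00645, 0.0199, 0.00482 and 0.0214. MYC3 and LEP were not called after centring either (adjusted p = 0.0822 and 0.163).

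**Figure D2:**
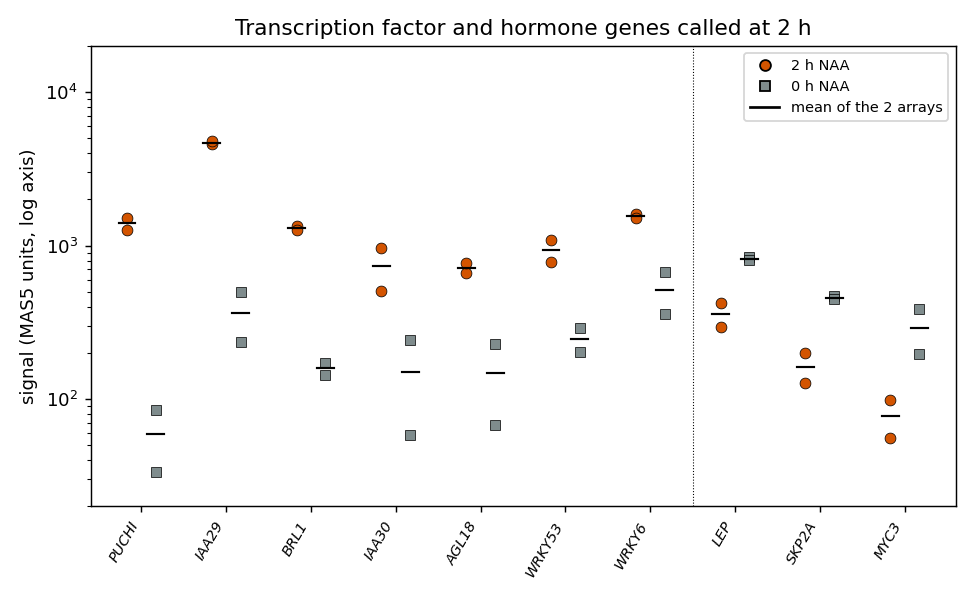
Signal on a log axis of the transcription factor and hormone genes called at 2 h, ordered by their change; circles are the 2 arrays at 2 h NAA, squares the 2 arrays at 0 h NAA, black lines the group means, and the dotted line parts rises from falls. The PUCHI arrays at 0 h lie at 85.4 and 33.5, far below those at 2 h, while IAA30 has the widest gap between replicates among the hormone genes that rose.

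Hormone genes other than GH3 gave 3 rises (12%) and 2 falls (8%) among 25 tested, with a median of 0.08. Against this, 7.23% of all named loci rose and 3.56% fell, and 5.15% and 4.87% of those with a symbol. The differences were not tested. The rises were those of the brassinosteroid receptor gene BRL1 and of the Aux/IAA genes IAA29 and IAA30. IAA29 had signals of 4593.2 and 4778.9 at 2 h, against 498.0 and 234.0 at 0 h, a rise of 3.76 ± 0.45 (adjusted p = 0.000649). IAA30, whose protein belongs to the Aux/IAA members that lack the degradation domain, read 972.3 and 507.0 at 2 h and 243.6 and 58.5 at 0 h, a rise of 2.49 ± 0.61 (adjusted p = 0.0230). The third tested member, IAA18, read 345.7 and 233.3 at 2 h and 93.3 and 225.7 at 0 h. Its arrays nearly touched, and the change of 0.94 ± 0.47 was not called (adjusted p = 0.231). The other 4 of 7 named Aux/IAA genes lay below the filter.

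BRL1 encodes a leucine-rich repeat receptor kinase that binds brassinosteroids in vascular tissue. Its signals were 1339.0 and 1255.8 at 2 h, against 172.9 and 144.3 at 0 h. At 6 h they were 1447.9 and 1338.6. The replicates lay close together in each group, and the rise of 3.00 ± 0.30 (adjusted p = 0.000310) was 7.99-fold. Calls of IAA29 and BRL1 held under every alternative run. The other 3 tested brassinosteroid genes were not called, with BIM1, a bHLH partner in brassinosteroid responses, at -1.05 ± 0.37 (adjusted p = 0.0968).

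With the GH3 genes left out, 0 of the 5 tested genes for the level, transport and binding of auxin rose. Another 5 named genes of this family lay below the filter. IAGLU, an enzyme that glucosylates auxin, read 1285.7 and 922.9 at 2 h against 520.9 and 356.0 at 0 h, a change of 1.33 ± 0.41 that missed the threshold (adjusted p = 0.0586). UGT74D1, another auxin glucosyltransferase, had 224.9 and 231.5 at 2 h against 344.8 and 270.9 at 0 h (-0.41 ± 0.36). YUC2, a flavin monooxygenase of auxin synthesis, read 78.8 and 62.5 at 2 h and 129.9 and 119.8 at 0 h (-0.79 ± 0.57). WAG2, a kinase that acts on PIN auxin transporters, had overlapping arrays, with 200.9 and 99.0 at 2 h and 177.7 and 74.8 at 0 h (0.28 ± 0.49). AT1G14130, to which the annotation gives no symbol, changed by 1.09 ± 0.40 (adjusted p = 0.110). From the lists of auxin transport (26 genes), auxin synthesis and conjugation (24) and auxin perception (6), only these last 4 could be tested, and 0 of the perception list were named.

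SKP2A, an F-box protein that targets cell cycle factors for degradation and binds auxin, fell. It had 198.5 and 126.8 at 2 h, against 466.6 and 446.8 at 0 h (-1.49 ± 0.37, adjusted p = 0.0234). Of the genes of ethylene (4 tested), gibberellin (5) and cytokinin (2), 0 were called, with changes from -1.18 to 0.53. GID1A, a gibberellin receptor, read 192.7 and 230.0 at 2 h and 397.7 and 414.0 at 0 h, a change of -0.93 ± 0.35 that did not pass (adjusted p = 0.120). IAA30 was not called without the eBayes trend, with hybridisation control brightness as a block, or without replicate 1 or 2 at 2 h or replicate 2 at 0 h, and its adjusted p ranged from 0.000716 to 0.161 over the alternatives run. That of SKP2A ranged from 0.0124 to 0.211, with no call after centring (0.0913), without the eBayes trend, or without replicate 1 at 0 h or either array at 2 h.

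Wall genes held the largest changes of the 5 classes in both directions. Of 67 tested, 8 rose (11.9%) and 7 fell (10.4%), and the class median was -0.39. Among all named loci 7.23% rose and 3.56% fell, and among those with a symbol 5.15% and 4.87%. The differences were not tested. Among 11 tested expansins, proteins that loosen the wall, EXPA4, EXPA20 and EXPA15 rose and the expansin-like gene EXLB1 fell. EXPA4 had signals of 2596.1 and 2773.3 at 2 h, against 117.9 and 32.8 at 0 h, a rise of 5.30 ± 0.48 (adjusted p = 0.000181). EXPA20 read 548.8 and 654.6 at 2 h, against 160.9 and 139.4 at 0 h (1.97 ± 0.31, adjusted p = 0.00266). EXPA15 read 304.9 and 418.3 at 2 h, against 145.3 and 72.8 at 0 h (1.74 ± 0.38, adjusted p = 0.0139). All 3 are alpha-expansins. EXLB1 fell and was among the brighter wall genes before NAA, with 240.0 and 420.5 at 2 h against 2252.8 and 2946.7 at 0 h (-3.00 ± 0.40, adjusted p = 0.00100), and it stayed low at 6 h with 135.0 and 252.5. The 7 expansins without a call had changes from -1.35 (EXPA9) to 0.00 (EXLA3).

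TBL proteins belong to a family that O-acetylates wall polysaccharides. Of 17 tested TBL genes TBL36 rose and TBL38 fell. TBL36 had 2988.9 and 4961.3 at 2 h, against 145.9 and 174.5 at 0 h (4.55 ± 0.34, adjusted p = 0.000108), and 7200.3 and 8813.9 at 6 h. TBL38 had 171.0 and 121.1 at 2 h, against 1315.5 and 739.1 at 0 h (-2.73 ± 0.43, adjusted p = 0.00244), and 20.6 and 14.7 at 6 h. The 15 other TBL genes were not called, and their changes ran from -1.45 to -0.02.

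GH9 endoglucanases cut cellulose-like glucan chains. GH9C2 had signals of 4725.8 and 8977.1 at 2 h, against 1237.9 and 1837.8 at 0 h (2.11 ± 0.38, adjusted p = 0.00547). GH9B8 had 394.2 and 565.4 at 2 h, against 192.6 and 69.5 at 0 h (1.98 ± 0.45, adjusted p = 0.0174). GH9B7 fell, with 1003.2 and 634.2 at 2 h against 1844.4 and 1680.4 at 0 h (-1.14 ± 0.33, adjusted p = 0.0450). GH9B13 read 299.2 and 602.3 at 2 h and 211.9 and 118.5 at 0 h, a change of 1.39 ± 0.48 that was not called (adjusted p = 0.0868). SKU5, a membrane-anchored protein of the cell surface that acts in directional root growth, read 918.7 and 1091.5 at 2 h, against 314.7 and 275.6 at 0 h, a rise of 1.75 ± 0.32 (adjusted p = 0.00556).

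Genes for wall glycans and their remodelling were called in both directions. GALT29A (AT1G08280), a galactosyltransferase that builds arabinogalactan side chains, read 600.6 and 672.7 at 2 h, against 232.0 and 60.7 at 0 h (2.36 ± 0.50, adjusted p = 0.0122). GlcAT14C, a glucuronosyltransferase of the same glycans, had 66.1 and 55.9 at 2 h, against 163.4 and 178.2 at 0 h (-1.42 ± 0.41, adjusted p = 0.0466). XTH21, of the xyloglucan-cutting and joining enzymes, fell to 52.7 and 81.5 at 2 h, against 490.0 and 455.0 at 0 h (-2.76 ± 0.62, adjusted p = 0.0155). None of the other 5 tested XTH genes was called. The pectin methylesterase gene PMEPCRF had 316.6 and 303.9 at 2 h, against 1162.4 and 1049.2 at 0 h, with almost no gap between replicates (-1.82 ± 0.31, adjusted p = 0.00397). The class III peroxidase gene PRX25 had 240.4 and 186.6 at 2 h, against 1140.0 and 428.7 at 0 h (-1.70 ± 0.45, adjusted p = 0.0313). COB, a membrane-anchored protein that guides cellulose deposition, read 278.0 and 333.4 at 2 h and 445.4 and 1056.9 at 0 h, a change of -1.16 ± 0.42 with no call (adjusted p = 0.101), and 0 of the 7 tested cellulose synthase-like and COBRA genes were called. EXPA4, EXPA20, TBL36, EXLB1, TBL38 and PMEPCRF were called under every alternative run. For the other 9 wall genes at least 1 alternative ended the call, and without replicate 2 at 2 h their adjusted p was from 0.0694 (SKU5) to 0.347 (GH9B7).

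**Figure D3:**
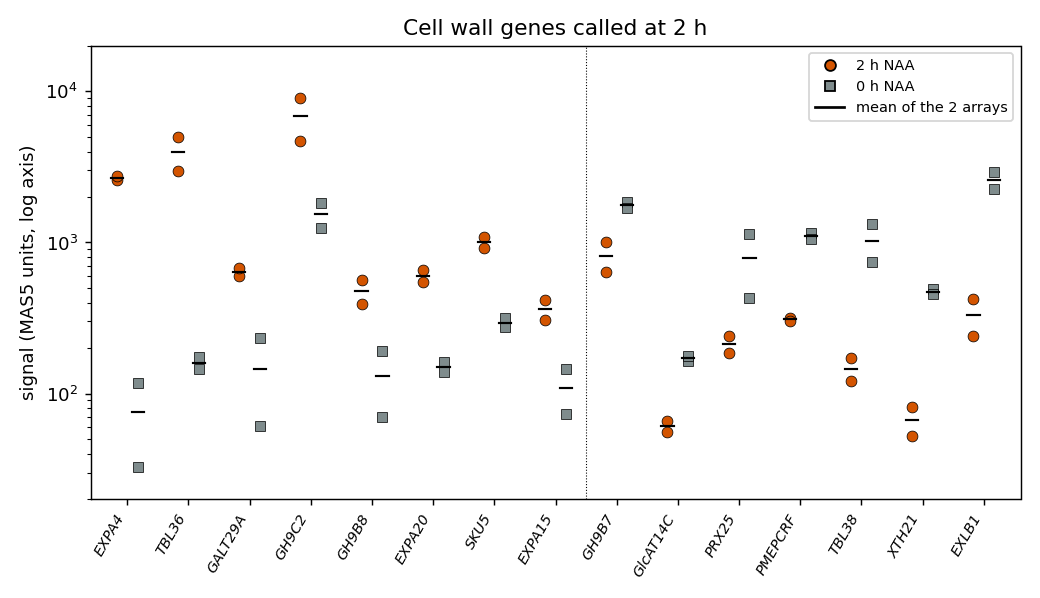
Signal on a log axis of the 15 wall genes called at 2 h, ordered by their change; circles are the 2 arrays at 2 h NAA, squares the 2 arrays at 0 h NAA, black lines the group means, and the dotted line parts rises from falls. EXPA4 and TBL36 stand at 2596.1 or more at 2 h and at 174.5 or less at 0 h, and EXLB1 shows the widest gap on the falling side.

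Of 67 tested transport genes 1 rose (1.49%) and 6 fell (8.96%), with a class median of -0.48. The background was 7.23% and 3.56% of all named loci, or 5.15% and 4.87% of those with a symbol. The differences were not tested. The rise was that of AT1G59740 (NPF4.3), a member of the nitrate and peptide transporter family, with 3271.2 and 1773.2 at 2 h against 654.0 and 782.5 at 0 h (1.74 ± 0.35, adjusted p = 0.00893). A relative, the glucosinolate importer gene GTR2, read 201.7 and 160.8 at 2 h and 888.9 and 372.6 at 0 h, a change of -1.65 ± 0.53 that was not called (adjusted p = 0.0686).

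The called falls lay in membranes of the vacuole, the endosome and the early secretory pathway and in sugar export. VHA-A2 and VHA-A3 encode the membrane subunit that places the vacuolar proton pump at the tonoplast. VHA-A2 had 522.0 and 252.4 at 2 h, against 1590.8 and 794.0 at 0 h (-1.62 ± 0.43, adjusted p = 0.0328). VHA-A3 had 678.8 and 446.2 at 2 h, against 1589.9 and 1194.1 at 0 h (-1.32 ± 0.34, adjusted p = 0.0292). VHA-A1, the form of that subunit in the trans-Golgi network, was dimmer and changed by -0.49 ± 0.40 with no call, with 140.8 and 113.7 at 2 h and 201.3 and 160.5 at 0 h. SWEET11, a sucrose exporter known from phloem loading, had 83.4 and 63.9 at 2 h, against 222.7 and 281.9 at 0 h (-1.71 ± 0.49, adjusted p = 0.0453). It was 1 of 11 tested sugar transporter genes and the only one called.

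SNF7.1 encodes a subunit of ESCRT-III, which pinches vesicles into endosomes. It read 134.0 and 174.4 at 2 h, against 671.4 and 521.0 at 0 h (-1.92 ± 0.35, adjusted p = 0.00565), the largest fall among the transport genes. It was the only one called of 13 ESCRT genes tested, and VPS22, of ESCRT-II, changed by -1.10 ± 0.34 (adjusted p = 0.0603). AtSec20, a SNARE of the endoplasmic reticulum, had 115.6 and 112.5 at 2 h, against 289.9 and 302.9 at 0 h (-1.34 ± 0.36, adjusted p = 0.0362). PRA1.A1, of a family that binds Rab proteins, had 260.4 and 220.4 at 2 h, against 556.5 and 504.4 at 0 h (-1.13 ± 0.32, adjusted p = 0.0435). The 6 tested exocyst genes all had changes below 0, from -0.93 (SEC5A) to -0.16, and none was called. The median of all probe sets tested was itself -0.15, and centring on array medians moved it to 0.12. The sign of a small change thus depends on the scaling. None of the 7 transport calls held under every alternative. After centring, AT1G59740 and 1 of the 6 lower genes, SNF7.1, were still called, and without replicate 1 at 2 h their adjusted p was 0.101 and 0.0601 (0.00431 to 0.101 and 0.00390 to 0.0601 over all alternatives), while without replicate 2 at 2 h the other 5 lay between 0.193 and 0.279.

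Signalling genes gave 3 rises (3.9%) and 6 falls (7.79%) among 77 tested, with a median of -0.11. Shares of all named loci were 7.23% and 3.56%, and of those with a symbol 5.15% and 4.87%. The differences were not tested. Receptor kinases held 2 of the falls. PXL1 and PXL2 encode leucine-rich repeat receptor kinases close to PXY, the receptor through which the CLE41 and CLE44 peptides keep vascular stem cells dividing. PXL1 had 61.3 and 104.3 at 2 h, against 324.9 and 305.7 at 0 h (-1.91 ± 0.49, adjusted p = 0.0280). PXL2 had 58.4 and 54.5 at 2 h, against 369.8 and 330.9 at 0 h (-2.53 ± 0.72, adjusted p = 0.0434). Both receptors were low on both arrays after 2 h. Of the ligands, CLE44 read 65.9 and 98.4 at 2 h and 57.4 and 12.4 at 0 h (1.38 ± 0.68), and CLE41 read 37.6 and 72.2 at 2 h and 106.7 and 48.3 at 0 h (-0.43 ± 0.63), and neither was called.

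The other 12 tested receptor kinases and relatives had changes from -1.81 to 0.68 and no call. FER, a receptor kinase for RALF peptides, read 919.4 and 1201.5 at 2 h, against 1343.9 and 1748.1 at 0 h (-0.54 ± 0.33). THE1, a related sensor of the wall, read 136.4 and 113.5 at 2 h, against 425.0 and 148.0 at 0 h (-0.99 ± 0.46). The 3 tested RALF-like peptide genes were not called, and RALFL32 hardly differed, with 852.2 and 991.6 at 2 h and 843.4 and 888.7 at 0 h.

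Ubiquitin ligases moved both ways. PUB23, a U-box ligase that restrains immune signalling, had 2515.5 and 3136.6 at 2 h, against 885.5 and 925.8 at 0 h (1.63 ± 0.30, adjusted p = 0.00587). ATL8, a RING-type member of the ATL family, had 309.9 and 179.9 at 2 h, against 1257.3 and 621.5 at 0 h (-1.88 ± 0.41, adjusted p = 0.0140). PUB43 read 99.8 and 38.7 at 2 h and 164.0 and 301.5 at 0 h and was not called (-1.75 ± 0.60, adjusted p = 0.0873).

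PRAF1, with regions of the RCC1 and FYVE kinds, read 478.9 and 321.0 at 2 h, against 108.7 and 107.2 at 0 h (1.81 ± 0.37, adjusted p = 0.00896). The IQ-domain gene iqd15, of a family that binds calmodulin, read 273.2 and 350.4 at 2 h, against 74.2 and 124.5 at 0 h (1.63 ± 0.36, adjusted p = 0.0145), and it read 624.3 and 648.4 at 6 h. Among the falls, the small GTPase gene SGP1 had 575.6 and 487.5 at 2 h against 1118.9 and 1174.3 at 0 h (-1.11 ± 0.31, adjusted p = 0.0434). Its relative SGP2 pointed the other way without a call, with 290.1 and 201.1 at 2 h and 127.9 and 75.5 at 0 h (1.254 ± 0.408, adjusted p = 0.0727). PIA1, a type 2C protein phosphatase, had 1100.7 and 518.3 at 2 h, against 1942.0 and 2487.2 at 0 h (-1.53 ± 0.38, adjusted p = 0.0250). The tetraspanin gene TET5 had 105.4 and 103.0 at 2 h, against 239.7 and 309.6 at 0 h (-1.35 ± 0.38, adjusted p = 0.0450). None of the 9 signalling calls held under every alternative. Without replicate 2 at 2 h only PRAF1 of the 9 was called, and the other 8 had adjusted p-values from 0.0793 (PUB23) to 0.263 (SGP1), and without replicate 1 at 2 h PRAF1 was not (0.110).

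**Figure D4:**
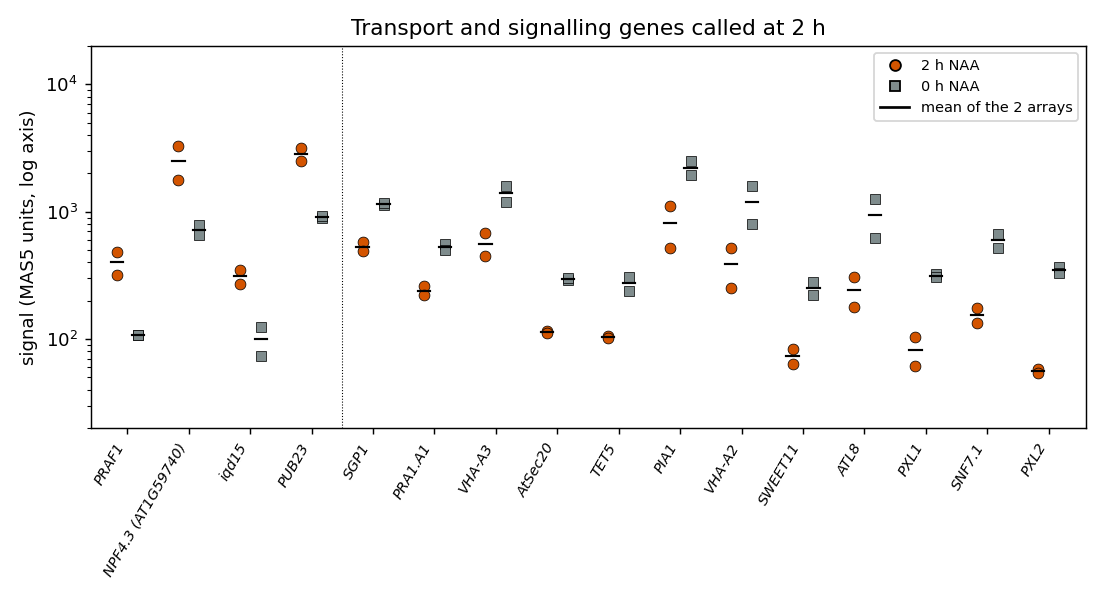
Signal on a log axis of the 16 transport and signalling genes called at 2 h, ordered by their change; circles are the 2 arrays at 2 h NAA, squares the 2 arrays at 0 h NAA, black lines the group means, and the dotted line parts the 4 rises from the 12 falls. PUB23 and AT1G59740 are the brightest of the rises, and PXL2 lies at 58.4 and 54.5 at 2 h against 369.8 and 330.9 at 0 h.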

How the data were processed

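Signal intensities came from the authors' deposited value table, 1 linear value per probe set and array; MAS5 is named for them in the submitters' processing notes, and its version is not named there. The trimmed mean was 250.0 on every array, as read from the values. A deposited detection p-value per probe set, for replicate 1 at 2 h, served only as a description. The labels call the arrays biological replicates; arrays have no read depth, and their number limits the precision.

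The fit took log2(signal + 5), which understates changes of dim genes. Of 22810 probe sets 64 controls were left out, and the 13647 above the 40th percentile of mean log2 signal were tested. All 6 arrays entered 1 limma 3.58.1 fit (R 4.3.3, eBayes with trend), whose 3 groups shared 1 spread. The fit was tested on simulated data. Alternatives covered the pseudocount, filter, normalization, eBayes options, blocks, the 4 arrays alone and each of these 4 left out.

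Names came from the array's gene table and TAIR10.1: 13436 probe sets matched 1 locus, and a locus took its brightest probe set. Families were grouped by symbol or synonym and include every named member, whatever its result. Members, lists and families were chosen with earlier results of these data known, and the families after their values were seen. The rule for named genes took the largest non-overlapping calls of each class (6 each way for transcription factors, 5 for the others) with a mean signal of at least 100, and all tested auxin transport, synthesis and perception genes. Called genes beyond it, PUCHI and every called signalling gene among them, are named after their values were seen. The rule formed its own classes by word patterns, with PRA1.A1 under signalling and not transport. Its word patterns also caught FMO, AT4G37090 and UGT73B4 by a shared word only, and these are not described. Its promoter step was not run, for want of sequence.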

Additional observations from a re-analysis of the deposited data

How the results depend on the processing

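The directions of the 52 genes called in the classes and in the groups under the other observations did not change under any alternative, but 12 of the 52 kept their call under every one in which they were tested. With the filter at the 60th percentile 44 of the 52 were tested, and TUB1 is the one of the 12 that was not. Of the 52, 21 were no longer called after centring on array medians, 18 without the eBayes trend, 17 with a block for hybridisation control brightness, and 10 each with quantile normalization and with no filter. Without replicate 1 or 2 at 2 h 29 and 36 were not, and without replicate 1 or 2 at 0 h 22 and 19. Probe sets higher at 2 h numbered 991 and fell to 653 without the trend, and probe sets lower at 2 h numbered 562 and fell to 323 without the trend and 240 after centring. Leaving out each of the 4 arrays compared gave 353 to 1042 higher and 110 to 500 lower probe sets, with the low end in both without replicate 2 at 2 h. Centring made 82.4% of the calls higher, against 63.8% with the authors' scaling, and moved the median change to 0.12 (quantile normalization to -0.02). The deviations of same-numbered arrays were hardly correlated (r = 0.057 between 2 h and 0 h). This value cannot settle whether equal numbers mark arrays made together, and the main fit used no pairing. With the replicate block 1242 probe sets were higher and 796 lower, against 991 and 562 without it. That block ended the call of 0 of the 52 genes. With 2 arrays a group and dim signals, a change that missed the threshold is not shown to be absent.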

Other observations

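Groups outside the 5 classes, chosen after their values were seen, gave falls or no calls. Of 7 tested genes that break down branched-chain amino acids and lysine 4 fell at 2 h (57.1%), with a group median of -2.10. Lower calls made up 3.56% of named loci and 4.87% of those with a symbol. The difference was not tested, since these genes were picked with their values known. MCCA and MCCB encode the subunits of methylcrotonyl-CoA carboxylase, which acts in leucine breakdown. MCCB had signals of 500.7 and 236.5 at 2 h, against 1796.3 and 1235.7 at 0 h (-2.10 ± 0.40, adjusted p = 0.00655, limma). MCCA had 148.9 and 65.7 at 2 h, against 385.0 and 547.1 at 0 h (-2.15 ± 0.47, adjusted p = 0.0141). LKR/SDH, the bifunctional first enzyme of lysine breakdown, had 183.0 and 119.5 at 2 h, against 705.6 and 1129.6 at 0 h (-2.55 ± 0.38, adjusted p = 0.00200). ETFALPHA, the electron carrier that takes electrons from these pathways in mitochondria, had 85.2 and 87.1 at 2 h, against 620.8 and 455.3 at 0 h (-2.56 ± 0.40, adjusted p = 0.00237). IVD, an acyl-CoA dehydrogenase of leucine breakdown, read 452.1 and 241.7 at 2 h and 898.0 and 723.2 at 0 h, and just missed the threshold (-1.27 ± 0.37, adjusted p = 0.0502). LKR/SDH and ETFALPHA were called under every alternative run, and MCCA and MCCB were not without replicate 2 at 2 h (adjusted p = 0.149 and 0.0846), nor was MCCA without replicate 2 at 0 h (adjusted p = 0.0636; lowest values over the alternatives 0.00842 for MCCA and 0.00109 for MCCB). In the breakdown of purine-derived ureides AAH was the only called gene of 4 tested, with 96.4 and 203.7 at 2 h against 366.7 and 743.8 at 0 h (-1.86 ± 0.47, adjusted p = 0.0271).

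Of 22 tested cytoskeleton genes 6 fell (27.3%) and 0 rose, with a median of -0.81. The background of lower calls was 3.56% of named loci and 4.87% of those with a symbol. As the group was chosen after its values were seen, the difference was not tested. The beta-tubulin gene TUB1 had 68.5 and 80.7 at 2 h, against 335.1 and 701.2 at 0 h (-2.63 ± 0.46, adjusted p = 0.00452), and was called under every alternative in which it was tested, which leaves out the filter at the 60th percentile. TUB5 had 298.9 and 370.2 at 2 h, against 953.8 and 789.6 at 0 h (-1.37 ± 0.36, adjusted p = 0.0301). The actin-bundling LIM protein gene WLIM1 had 252.3 and 288.3 at 2 h, against 753.3 and 791.1 at 0 h (-1.50 ± 0.33, adjusted p = 0.0134). ACT11, WLIM2a and ATMAP65-6 were the other 3, and after centring TUB1 alone of the 6 was called. The 11 tested autophagy genes had a median of -0.75 and 0 calls. ATG8F, which encodes a ubiquitin-like protein of autophagosome membranes, read 1118.8 and 685.3 at 2 h and 3017.0 and 1673.8 at 0 h (-1.35 ± 0.43, adjusted p = 0.0690). AGO7, the argonaute of the trans-acting small RNAs that target ARF genes, was also singled out after its values were seen, with 172.1 and 191.7 at 2 h against 5.7 and 8.6 at 0 h. Its 0 h signals were close to the pseudocount of 5, so no size of the difference is given.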
